A study of Mus musculus with 9 samples.

Results

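The 33 genes described here are interferon-stimulated genes of the mouse kidney, taken by name from a fixed list of 33 symbols out of 32427 genes with a row in any of 9 single-cell count matrices. All 33 symbols had a row in each of the 9 matrices. By role they were 4 transcription factors (Irf1, Irf7, Irf9, Stat2), 4 sensors of foreign nucleic acid (Ifih1, Dhx58, Ddx60, Zbp1), 3 IFIT proteins (Ifit1, Ifit2, Ifit3), 5 members of the oligoadenylate synthetase family (Oas1a, Oas2, Oas3, Oasl1, Oasl2), 5 GTPases (Mx1, Mx2, Gbp2, Gbp3, Gbp7), 3 genes of the ISG15 system (Isg15, Usp18, Herc6), 2 membrane and lipid effectors (Bst2, Rsad2), 2 genes of the IFI27 family (Ifi27, Ifi27l2a) and 5 other induced genes (Ifi35, Ifi44, Parp14, Rtp4, Xaf1).

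Interferons are secreted proteins that cells release when they sense viral or misplaced nucleic acid. Type I interferons bind the receptor pair encoded by Ifnar1 and Ifnar2, the kinases Jak1 and Tyk2 then act on STAT2, and a complex that holds STAT2 and IRF9 binds the interferon-stimulated response element (ISRE) in the promoters of target genes. Interferon gamma, made mainly by T and natural killer cells, acts through Ifngr1 and Ifngr2 and leads to binding at the gamma-activated site (GAS). The induced proteins block steps of viral replication or feed back on the pathway, and many of them are also made at a low constant level in unstimulated tissue.

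Single-cell RNA was collected from kidneys of 9 male C57BL/6 mice, 3 in each of 3 groups. Mice were 6 weeks old on arrival and had 1 week of adaptation. Control mice received saline, and AKI-CKD mice received intraperitoneal cisplatin, a nephrotoxic platinum drug, at 8 mg/kg once a week for 4 injections, which models acute kidney injury passing into chronic kidney disease. AKI-CKD + EGT mice received the same cisplatin course plus ergothioneine (EGT), a diet-derived thiol antioxidant, in their drinking water at 0.5 mg/mL, which comes to 100 mg/kg daily, from 3 days before the first injection. Kidneys of all 3 groups were taken at 8 weeks, so each library is 1 mouse at 1 late time point, and EGT alone without cisplatin was not analysed here. The comparisons asked how the members differed between AKI-CKD and Control and between AKI-CKD + EGT and AKI-CKD.

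The 9 libraries held 216680 barcodes and between 70106161 and 101525691 unique molecular identifiers (UMIs, each standing for 1 captured polyadenylated transcript). After filtering, 196925 cells remained, with a median of 2714 UMIs per cell. Clusters formed without the members or their pathway were named from marker genes: 152201 proximal tubule (PT) cells, 14378 distal convoluted tubule (DCT), 7212 loop of Henle (LOH), 3670 endothelial, 2938 collecting duct principal (CD-PC), 2341 macrophages, 1762 collecting duct intercalated (CD-IC), 948 T cells, 876 cycling cells, 811 thin limb, 745 B cells, 701 stromal cells and 700 podocytes. A further 815 cells led by S100a9, S100a8 and Lyz2 are called the S100a8/S100a9 myeloid cluster, and 6827 cells stayed unnamed. Of the unnamed cells 5015 formed a cluster with 6 PT markers raised, left unnamed because haemoglobin genes led it. Unnamed cells were 1.43%, 3.91% and 9.71% of cells in Control mice and 0.722%, 0.964% and 0.901% in AKI-CKD. With EGT they were 2.08%, 7.21% and 3.21%. The PT class thus left out a share of cells that differed between groups, and its part in the PT comparisons was not tested. PT transcripts were present in every class: in CPM, a gene's UMIs scaled to 1000000 UMIs of the class in 1 mouse, the 16 PT marker genes summed to between 52500 and 114858 CPM in macrophages and between 27394 and 79195 CPM in endothelial cells, beside 83164 to 152887 CPM in PT cells. Of 98290 distinct barcode names, 62337 occurred in more than 1 library. These are numbers given within each library, so a shared name does not mark a shared cell.

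The promoters of 5 members described in the results are printed as examples, chosen after the matches were seen: 4 hold matches to the ISRE and 1 holds a match to the GAS alone. Other members held as many matches, with 2 ISRE matches each in Ddx60, Ifit1, Oas1a and Gbp3. RefSeq promoter windows, from 250 bases before to 50 after each transcription start, were matched to 23 of the 33 members, on build GRCm38.p6, which is older than the GRCm39 build of the count files. The 250 bases before the start are printed 5′ to 3′ on the gene's strand, in lower case, with motif matches in capitals.
Isg15, chr4:156200819-156201068, minus strand: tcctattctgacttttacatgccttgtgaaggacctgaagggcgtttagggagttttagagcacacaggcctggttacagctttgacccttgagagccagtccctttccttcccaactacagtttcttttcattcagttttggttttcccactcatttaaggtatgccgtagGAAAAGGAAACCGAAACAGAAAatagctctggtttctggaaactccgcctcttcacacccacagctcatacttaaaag
Ifit3, chr19:34583279-34583528, plus strand: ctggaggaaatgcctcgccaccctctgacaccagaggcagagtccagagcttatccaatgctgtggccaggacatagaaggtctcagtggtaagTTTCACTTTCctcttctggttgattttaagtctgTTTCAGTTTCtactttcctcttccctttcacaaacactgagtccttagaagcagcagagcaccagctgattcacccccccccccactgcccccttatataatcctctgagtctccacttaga
Rsad2, chr12:26456453-26456702, minus strand: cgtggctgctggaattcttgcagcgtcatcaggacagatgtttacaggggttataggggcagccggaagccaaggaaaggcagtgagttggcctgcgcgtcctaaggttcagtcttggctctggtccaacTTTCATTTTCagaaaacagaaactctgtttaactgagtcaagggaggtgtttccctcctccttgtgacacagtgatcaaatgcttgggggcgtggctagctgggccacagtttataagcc
Bst2, chr8:71537473-71537722, minus strand: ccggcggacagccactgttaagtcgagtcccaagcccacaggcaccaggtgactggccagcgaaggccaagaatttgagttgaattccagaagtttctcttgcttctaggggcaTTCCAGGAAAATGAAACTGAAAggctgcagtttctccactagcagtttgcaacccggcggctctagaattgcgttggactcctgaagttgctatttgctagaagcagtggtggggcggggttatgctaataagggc
Irf1, chr11:53769764-53770013, plus strand: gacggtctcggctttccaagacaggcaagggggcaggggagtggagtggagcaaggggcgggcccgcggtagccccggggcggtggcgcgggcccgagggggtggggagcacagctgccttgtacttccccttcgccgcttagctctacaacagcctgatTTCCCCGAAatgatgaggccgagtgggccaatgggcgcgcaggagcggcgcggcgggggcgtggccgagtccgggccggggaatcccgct

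Capitals mark matches to an ISRE-type motif, GAAA followed after any 2 bases by GAAA, or to a GAS motif, TTCNNNGAA, searched on both strands. In the Isg15 promoter 3 overlapping ISRE matches began 78, 72 and 66 bases before the start. Ifit3 had 2 separate ISRE matches, 156 and 122 bases before the start, and Rsad2 had 1, 120 bases before it. Bst2 had 2 ISRE matches, at 130 and 124 bases, and a GAS match at 136 bases that overlaps the first of them. Irf1 had a GAS match 90 bases before the start and no ISRE match. Over the whole window of 300 bases, 13 of the 23 matched members (56.5%) held an ISRE match, beside 3.99% of 27025 genes in the RefSeq table. A GAS match was present in 6 members (26.1%), beside 9.55% of all genes. Both motifs were found in 3 members and neither in 7. A match of this kind is a description of the letters and does not show binding.

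The members were far more abundant in endothelial cells than in PT cells. CPM carries no scaling by transcript length, so levels were compared between classes and mice and not between genes. The summed level of the 33 members was 2454 ± 566 CPM (SD, n = 9 mice) in endothelial cells, 1505 ± 596 CPM in the S100a8/S100a9 myeloid cluster, 1028 ± 307 CPM in T cells, 932 ± 257 CPM in macrophages and 116 ± 22.4 CPM in PT cells. Among the other tubule classes it was 701 ± 261 CPM in the thin limb, 277 ± 53.6 CPM in CD-PC and 241 ± 70.5 CPM in LOH cells. Without Ifi27 the sums were 2214 ± 522 CPM in endothelial cells and 52.5 ± 13.4 CPM in PT cells. PT transcripts in the other classes, given above and most of all in macrophages beside endothelial cells, enter the totals behind CPM. Their part in the order of the classes was not tested. Of 14 classes, endothelial cells had the highest mean level for 22 members, the S100a8/S100a9 myeloid cluster for 7, the thin limb for 3 and macrophages for 1. Endothelial cells exceeded PT cells in 9 of 9 mice for 31 of the 33 members, beside 29.95% of the 15942 genes with more than 1 CPM over both classes, of which 31 were members. With 1 CPM added to both classes, the median ratio of endothelial to PT level was 18.6 for those members and 1.21 for those genes. The exceptions were Oas3, higher in endothelial cells in 1 mouse, and Mx1, higher in 7 mice with 65 UMIs in the whole series.

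**Figure D1:**
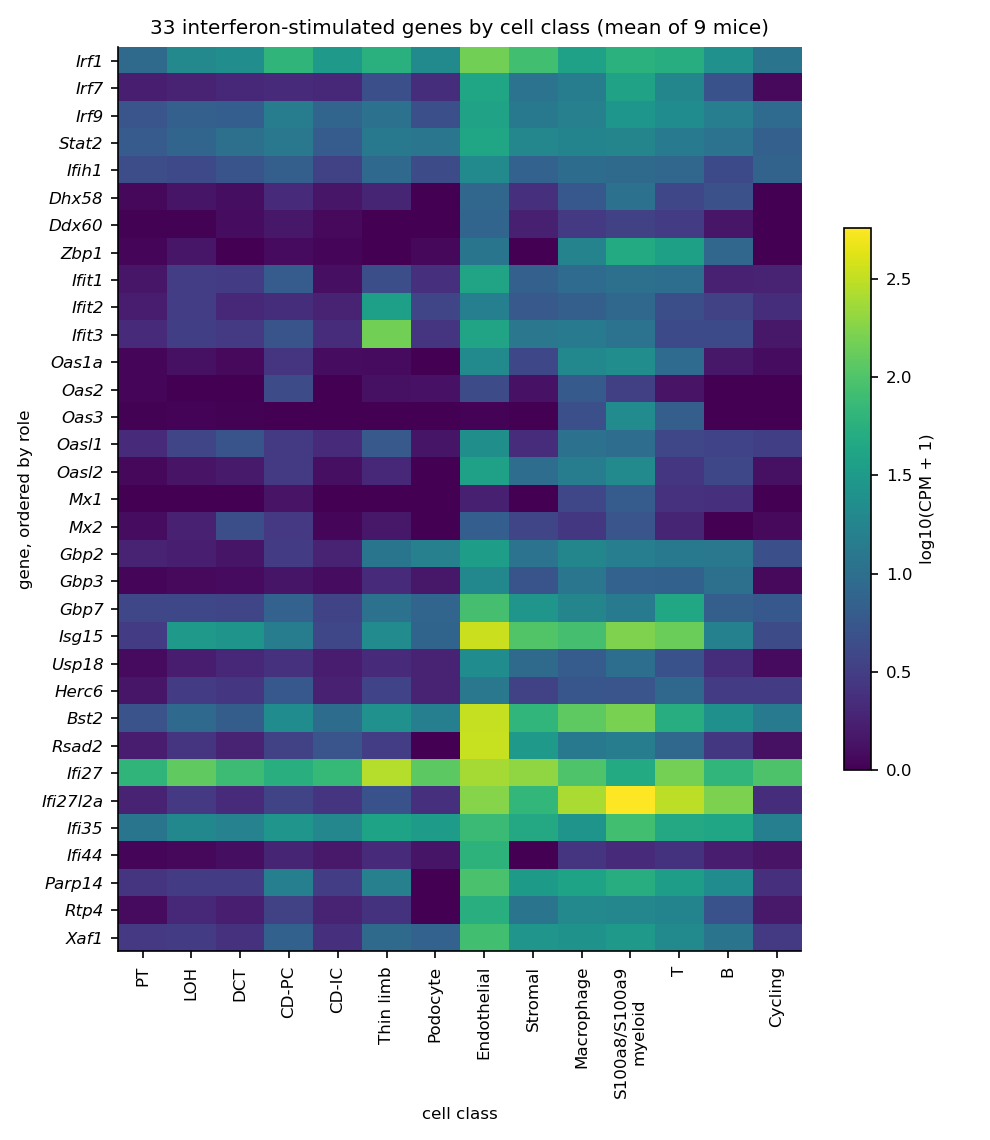
Mean CPM of each of the 33 members (rows) in each of the 14 named cell classes (columns) over 9 mice, coloured by log10(CPM + 1), with yellow for the highest level. The endothelial column is the brightest for 22 members, and the PT column is dark for most members but not for Ifi27.

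Rsad2, which encodes viperin, an enzyme that makes a chain-terminating nucleotide, had mice in endothelial cells that lay clear of every other class. Its endothelial level was 336 ± 107 CPM (SD, n = 9) beside 29.0 ± 21.7 CPM in stromal cells, the second class, and the 9 mice of the 2 classes did not overlap. In PT cells it was 0.655 CPM, and 84.8% of all Rsad2 UMIs lay in endothelial cells, which made up 1.86% of cells and 1.74% of UMIs. Ifi44, a cytoplasmic antiviral protein, had 85.0% of its UMIs there, at 59.8 ± 27.2 CPM beside 1.58 ± 1.56 CPM in macrophages, again without overlap. Xaf1, a pro-apoptotic binding partner of XIAP, was the third member whose first and second class did not overlap. It was at 83.5 ± 18.3 CPM beside 30.4 ± 14.97 CPM in the S100a8/S100a9 myeloid cluster. Overlap of Xaf1 with lower classes, such as stromal cells at a mean of 26.2 CPM, was not examined. For the other members highest in endothelial cells, the mice of the first and second class overlapped.

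Among the regulators, Irf7, the inducible factor that amplifies type I interferon, reached 40.4 ± 15.5 CPM in endothelial cells and 38.0 ± 26.5 CPM in the S100a8/S100a9 myeloid cluster, which is within the spread between mice. Stat2 and Irf9, subunits of the complex that binds the ISRE, were at 42.2 ± 9.37 and 37.9 ± 9.77 CPM in endothelial cells and at 5.20 and 4.28 CPM in PT cells. PT cells still held 63.6% of all Stat2 UMIs and 63.2% of all Irf9 UMIs, since they held 81.4% of all UMIs. Irf1, a factor induced by interferon gamma and by stress, was at 147 ± 65.9 CPM in endothelial cells, higher in 9 of 9 mice than in stromal cells at 82.5 ± 54.2 CPM. Of the sensors, Ifih1 (MDA5) was highest in endothelial cells at 19.5 ± 3.02 CPM, and Ddx60 at 6.98 ± 3.25 CPM. Zbp1, a sensor of left-handed nucleic acid, was highest in the S100a8/S100a9 myeloid cluster at 48.0 ± 35.9 CPM and in T cells at 35.8 ± 12.8 CPM.

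Isg15, a ubiquitin-like modifier, was at 340.1 ± 81.1 CPM in endothelial cells, 168 ± 144 CPM in the S100a8/S100a9 myeloid cluster, 137 CPM in T cells, 87.7 CPM in macrophages and 2.09 CPM in PT cells. Usp18, the protease that removes ISG15 and damps the type I receptor, followed at 21.1 ± 7.90 CPM in endothelial cells and 0.190 CPM in PT cells. Bst2 (tetherin), a membrane protein that holds budding virus on the cell surface, was at 325 ± 113 CPM in endothelial cells, 158 ± 72.8 CPM in the S100a8/S100a9 myeloid cluster and 4.12 CPM in PT cells. The GTPase Gbp7 was at 88.0 ± 18.7 CPM and Gbp2 at 33.7 ± 9.53 CPM in endothelial cells, and Oasl2, at 36.9 ± 9.00 CPM, was 264 times its PT level. In each of these genes the endothelial level exceeded the PT level in all 9 mice.

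Some members did not have their highest level in endothelial cells. Ifi27l2a, a small mitochondrial or nuclear membrane protein, was at 572 ± 324 CPM in the S100a8/S100a9 myeloid cluster, 306 ± 136 CPM in T cells and 256 CPM in macrophages. Its endothelial level of 182 CPM was below that of macrophages in 9 of 9 mice, and 61.5% of its UMIs lay in immune classes. Its relative Ifi27 had another distribution: 72.5% of its UMIs lay in PT cells, at 63.5 CPM, and its highest levels were 280.2 ± 101 CPM in the thin limb and 239.8 ± 61.0 CPM in endothelial cells, which overlapped. Ifit3, an RNA-binding antiviral protein, was at 146 ± 79.5 CPM in the thin limb and 39.8 ± 18.8 CPM in endothelial cells, and the thin limb was higher in 8 of 9 mice. Ifit2 shared that order, at 34.6 ± 16.8 beside 14.3 ± 5.92 CPM and higher in 9 of 9 mice, whereas Ifit1 was highest in endothelial cells at 39.6 ± 20.5 CPM. Oas3 was close to absent from endothelial cells at 0.0645 CPM, and was at 20.3 ± 13.0 CPM in the S100a8/S100a9 myeloid cluster. Ifit3, Oas1a, Ifi27l2a and the Gbp genes have close paralogs, so reads between copies may have been split or lost in counting.

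The difference between classes was also present per cell when each cell was thinned to 1000 UMIs. At that depth 34.5% ± 7.99 of endothelial cells (SD, n = 9) held UMIs of at least 3 members, beside 12.1% ± 7.82 in the S100a8/S100a9 myeloid cluster, 8.57% ± 4.15 of macrophages, 7.30% ± 4.61 of T cells and 0.0678% ± 0.0116 of PT cells. Without thinning the share was 64.3% in endothelial cells and 0.786% in PT cells, at median depths of 2419.5 and 2896 UMIs. Isg15 alone was found in 21.6% ± 3.65 of thinned endothelial cells and 0.220% ± 0.203 of thinned PT cells. For Rsad2 these shares were 26.7% ± 7.51 and 0.0595% ± 0.0246. PT cells are given here as the background class.

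Within endothelial cells the members differed between mice of one group. Of 29 members tested there, AKI-CKD mouse 2 had the highest level in its group for 26 and AKI-CKD mouse 1 the lowest for 25, beside 37.7% and 35.4% of all 10353 tested genes. AKI-CKD + EGT mouse 3 was lowest for 25 members (30.8% of all genes) and mouse 1 highest for 19 (36.4%). Control mouse 1 was lowest for 23 and mouse 3 highest for 19 (33.7% of all genes). The summed endothelial markers ran the same way in Control, at 3529, 4008 and 4285 CPM in mice 1 to 3. In the other groups they ran the same way in part, at 5416 CPM in AKI-CKD mouse 2 beside 3791 and 3733 CPM in mice 1 and 3, and at 5836 CPM in AKI-CKD + EGT mouse 1 beside 3875 and 3267 CPM. Divided by that sum, AKI-CKD mouse 1 was still lowest for 24 members, while the mouse with most highest members became mouse 3 (18, beside 11 for mouse 2). In AKI-CKD + EGT the scaled order was less one-sided, with mouse 2 highest for 17 and mouse 3 lowest for 14. Scaled in this way, Control mouse 1 was lowest for 19 and Control mouse 3 highest for 16. The share of all genes in each scaled order was not computed. Dividing by the sum lowers every gene in a mouse with a high sum, so the scaled counts are not particular to the members. PT markers in endothelial cells were lowest in AKI-CKD mouse 2, at 27394 CPM, beside 65667 and 61972 CPM in mice 1 and 3, and their part in the order was not tested.

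**Figure D2:**
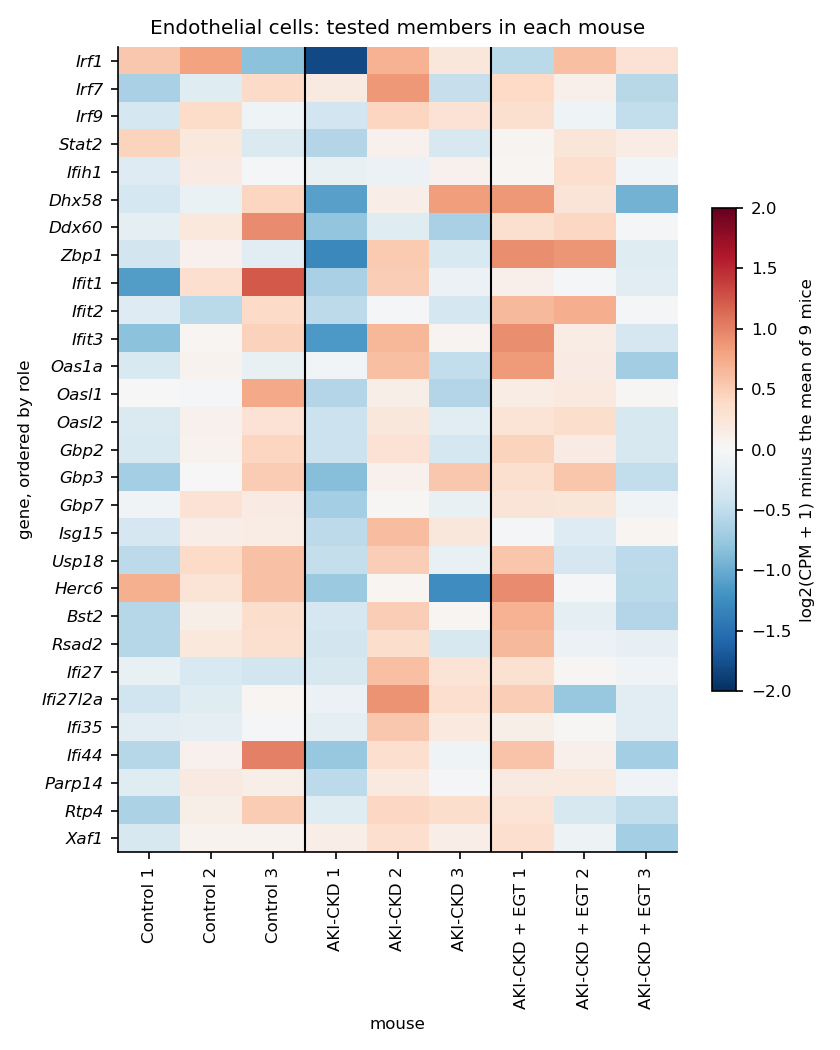
Level of the 29 tested members (rows) in endothelial cells of each of the 9 mice (columns), coloured by log2(CPM + 1) minus the gene's mean over the mice, red above it and blue below. AKI-CKD mouse 2 is highest in its group for 26 of 29 members and AKI-CKD mouse 1 lowest for 25.

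AKI-CKD was compared with Control in each of 7 populations and in all kept cells. Counts were summed per mouse and tested across all genes with edgeR's quasi-likelihood test, with p adjusted by the method of Benjamini and Hochberg over all genes tested, and a gene was called at an adjusted p under 0.05. CPM in these comparisons carries edgeR's scaling of library sizes. The standard errors given were derived from the test's F statistic, as the absolute log2 fold change divided by the square root of F. In bulk sums such as all kept cells, fewer cells of a type and less RNA per cell cannot be told apart. The study's methods describe the 3 libraries of a group as biological replicates, and each is taken here as 1 mouse.

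In macrophages Isg15 was higher in AKI-CKD than in Control mice. Control mice 1 to 3 had 54.4, 30.2 and 39.8 CPM. AKI-CKD mice had 125, 153 and 251 CPM, and with EGT the level was 69.1, 35.4 and 38.9 CPM. All 3 AKI-CKD values lay above the 6 others. The log2 fold change against Control was 2.10 with a standard error of 0.307 and an adjusted p of 0.0350 (edgeR), and it was the only called gene of 7725 (0.0129% called higher and 0% lower). At an unadjusted p under 0.05, 2 of the 19 tested members were higher and 0 lower, beside 2.77% and 3.81% of all genes. In AKI-CKD + EGT the log2 fold change against AKI-CKD was -1.98 with a standard error of 0.310, and the adjusted p was 0.0797, which missed the threshold. DESeq2 called the gene in both comparisons, with adjusted p of 1.08e-05 and 0.000151, beside 1 and 2 of 7725 genes called in all.

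The macrophage result rested on few transcripts. Isg15 gave 73, 28 and 31 UMIs in the 410, 325 and 267 macrophages of Control mice, 26, 125 and 166 UMIs in the 78, 238 and 188 macrophages after cisplatin alone, and 41, 43 and 38 UMIs in the 192, 389 and 254 macrophages after cisplatin and EGT. The 5 cells with most Isg15 held between 45.2% and 76.9% of these UMIs in each mouse, and 1 cell of AKI-CKD mouse 3 held 44 UMIs. The share of macrophages with an Isg15 UMI was 8.29%, 4.62% and 7.12% in Control mice, 11.5% (95% Wilson interval 6.19% to 20.5%), 13.9% (10.05% to 18.8%) and 12.2% (8.29% to 17.7%) in AKI-CKD. With EGT it was 7.81%, 4.88% and 8.66%. These intervals cover counting error only. Thinned to 1000 UMIs per cell, the shares were 4.63%, 2.46% and 4.87% in Control, 8.97%, 7.56% and 6.91% in AKI-CKD and 5.21%, 2.83% and 2.76% in AKI-CKD + EGT, with no overlap between AKI-CKD and either other group. Per 1000 UMIs of the macrophage markers, Isg15 stood at 3.69, 2.12 and 1.98 in Control, 6.76, 8.83 and 19.3 in AKI-CKD and 2.84, 2.69 and 2.61 in AKI-CKD + EGT. PT markers in macrophages ranged from 86390 to 114858 CPM in Control, 52500 to 90104 in AKI-CKD and 63568 to 85478 in AKI-CKD + EGT, and their part in the result was not tested. The 6 neutrophil markers summed in the macrophage class to 169 CPM in AKI-CKD mouse 3, the mouse with the highest Isg15, beside 4.60 and 4.82 CPM in AKI-CKD mice 1 and 2, 7.33 to 29.3 CPM in Control and 8.45 to 55.1 CPM with EGT, and their part was not tested either. The 5 haemoglobin and red cell genes, carried by blood, summed in macrophages to 0, 0 and 4.48 CPM in AKI-CKD and, without overlap, to 6.76, 57.6 and 18.1 CPM with EGT, beside 0.751, 28.3 and 380 CPM in Control mice. Over all kept cells they ran from 0.4002 to 3.26 CPM in AKI-CKD and from 66.6 to 129.7 CPM with EGT, and their part in the values with EGT was not tested. Clustered without the per-library correction, 1156 of the 2341 macrophages fell among PT clusters and 1137 among macrophages, and Isg15 was still called against Control (adjusted p = 0.0284, edgeR).

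The call against Control was lost without Control mouse 2 (log2 fold change 1.91, adjusted p = 0.479, edgeR), Control mouse 3 (2.07, adjusted p = 0.0736), AKI-CKD mouse 2 (2.21, adjusted p = 0.0800) or AKI-CKD mouse 3 (1.75, adjusted p = 0.243). It was also lost at a maximum of 10% mitochondrial UMIs (2.07, adjusted p = 0.121, edgeR) and without the cells of highest doublet score (2.02, adjusted p = 0.0769), and when the 5% deepest and 5% shallowest cells were left out, at a log2 fold change of 1.43 and an adjusted p of 0.413. The direction held in each of these fits. In the second comparison the adjusted p was 0.0218 (edgeR) at a log2 fold change of -2.30 without AKI-CKD + EGT mouse 1. Leaving out any of the 5 other mice compared gave between 0.0856 and 0.620, at log2 fold changes from -2.13 to -1.62.

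**Figure D3:**
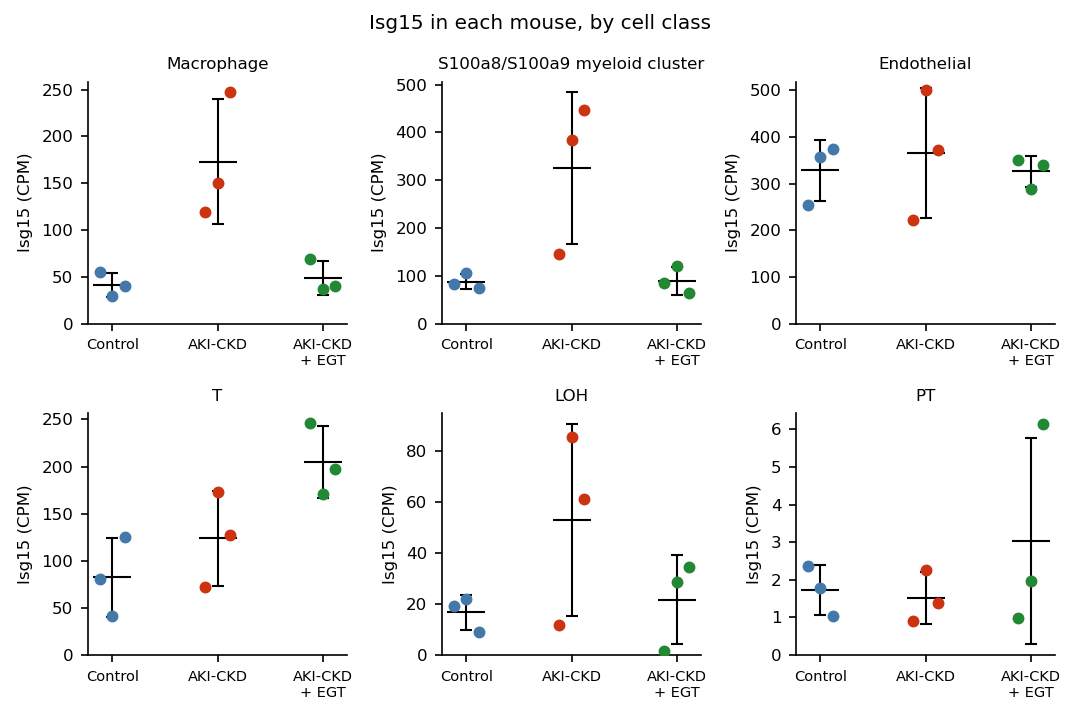
Isg15 level (CPM of the class total, without edgeR's scaling) in 6 classes for Control, AKI-CKD and AKI-CKD + EGT, each point 1 mouse, with the mean and SD of each group and an axis of its own per class. In macrophages the AKI-CKD mice, at 119.7, 151 and 248 CPM, lie above the 6 other mice, and in endothelial cells the groups overlap.

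The level of Isg15 in other cells did not run one way. In the S100a8/S100a9 myeloid cluster, which was not tested, it was at 82.7, 105 and 75.3 CPM in Control mice. It was at 146, 385 and 448 CPM in AKI-CKD and 85.3, 121 and 62.8 CPM in AKI-CKD + EGT. The AKI-CKD mice lay above the other 6, and the share of all genes that did so was not computed. These levels rested on 45, 29 and 12 UMIs in Control mice, 29, 173 and 198 in AKI-CKD and 20, 62 and 22 with EGT. The AKI-CKD UMIs came from 49, 111 and 83 cells. In each mouse the 5 cells with most Isg15 held between 49.7% and 100% of its UMIs there. The level in lymphocytes and endothelial cells was as follows. In T cells Isg15 was at 79.6, 42.6 and 120 CPM in Control mice, 75.6, 184 and 129 CPM in AKI-CKD and 233, 168 and 194 CPM in AKI-CKD + EGT, and AKI-CKD overlapped both other groups. In B cells it was at 25.6, 26.3 and 43.0 CPM in Control mice, 0, 8.54 and 5.41 CPM in AKI-CKD and 5.65, 5.62 and 18.8 CPM with EGT, so AKI-CKD lay below Control, on 32 UMIs in all and without a test. In endothelial cells it was at 263, 363 and 367 CPM in Control mice, 230.1, 508 and 387 CPM in AKI-CKD and 325, 276 and 342 CPM in AKI-CKD + EGT, and the groups overlapped.

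Of the other 18 members tested in macrophages, none was called. Ifi27l2a was at 167, 197 and 259 CPM in Control mice and 293, 387 and 285 CPM in AKI-CKD macrophages, without overlap, and its log2 fold change was 0.65 with a standard error of 0.266 and an adjusted p of 0.713 (edgeR). Isg15 and Ifi27l2a were the 2 members whose mice did not overlap, both higher, beside 6.83% of genes not overlapping higher and 6.94% lower. Zbp1 had a log2 fold change of 0.96 and an adjusted p of 0.777 with overlapping mice. The median log2 fold change of the 19 tested members was 0.22, beside 0.00 for all genes tested, and it turned to -0.13 without AKI-CKD mouse 2. It was 0.49 with AKI-CKD mouse 3 left out and 0.54 with Control mouse 3 left out.

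In PT cells no member passed the test. Bst2 was at 2.73, 3.53 and 2.36 CPM in Control mice, 5.03, 7.22 and 5.85 CPM in AKI-CKD and 4.49, 3.42 and 3.02 CPM in AKI-CKD + EGT. The AKI-CKD mice lay above both other groups. Its log2 fold change against Control was 1.07 with a standard error of 0.215 and an adjusted p of 0.184 (edgeR), and DESeq2 called it. Ifi27, a mitochondrial or nuclear membrane protein, was at 55.8, 52.4 and 43.3 CPM in Control mice, 65.8, 101.6 and 67.7 CPM in AKI-CKD and 71.4, 67.0 and 49.0 CPM in AKI-CKD + EGT PT cells. AKI-CKD lay above Control without overlap, at a log2 fold change of 0.63 and an adjusted p of 0.349. Ifit1 went the other way, at 0.390, 0.489 and 0.870 CPM in Control mice and 0.288, 0.263 and 0.241 CPM in AKI-CKD, with a log2 fold change of -1.14 and an adjusted p of 0.376. Gbp3 and Oasl2 also lay lower without overlap, at log2 fold changes of -1.27 and -0.98 and levels under 1 CPM.

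By count, 0 of 27 members tested in PT cells were called, beside 0.0391% of 17917 genes called higher and 0.00558% lower. With p unadjusted and under 0.05, 2 members were higher and 1 lower, beside 4.96% and 6.35% of all genes, and DESeq2 called 1, beside 205 of 17917 genes. The mice did not overlap for 2 members higher and 3 lower, beside 11.6% and 9.37% of all genes. The median log2 fold change was -0.15, beside -0.01 for all genes, and ran from -0.39 without AKI-CKD mouse 2 to -0.015 without Control mouse 1.

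For Ifi27 and Bst2 the AKI-CKD mean lay above Control in each of the 8 populations. All kept cells, counted among the 8, holds the cells of the other populations. The share of all genes with the same direction in all 8 was not computed. The log2 fold change of Ifi27 was 0.56 in all kept cells, 0.63 in PT, 0.49 in LOH, 0.29 in DCT, 0.55 in CD-PC, 0.51 in endothelial cells, 0.28 in macrophages and 0.91 in T cells, and that of Bst2 ran from 0.09 in endothelial cells to 1.12 in DCT cells. edgeR called none of these. These values share the same mice, so they are not independent of each other. PT markers were lower in AKI-CKD than in Control without overlap in LOH cells (32920 to 69006 beside 76573 to 88145 CPM), DCT cells (39964 to 84861 beside 93184 to 102131 CPM), CD-PC cells (15501 to 36078 beside 42736 to 61244 CPM), endothelial cells (27394 to 65667 beside 66075 to 79195 CPM) and T cells, and their part in these values was not tested. In T cells Ifi27 was at 79.6, 88.4 and 139 CPM in Control mice and 151, 249 and 156 CPM in AKI-CKD, without overlap, with an adjusted p of 0.301 (edgeR). AKI-CKD mouse 2 was the highest of its group in all kept cells, at 108 CPM beside 70.5 and 77.6 CPM. Bst2 in DCT cells was at 4.55, 3.25 and 1.29 CPM in Control mice and 7.08, 6.43 and 6.69 CPM in AKI-CKD, a log2 fold change of 1.12 with an adjusted p of 0.457.

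**Figure D4:**
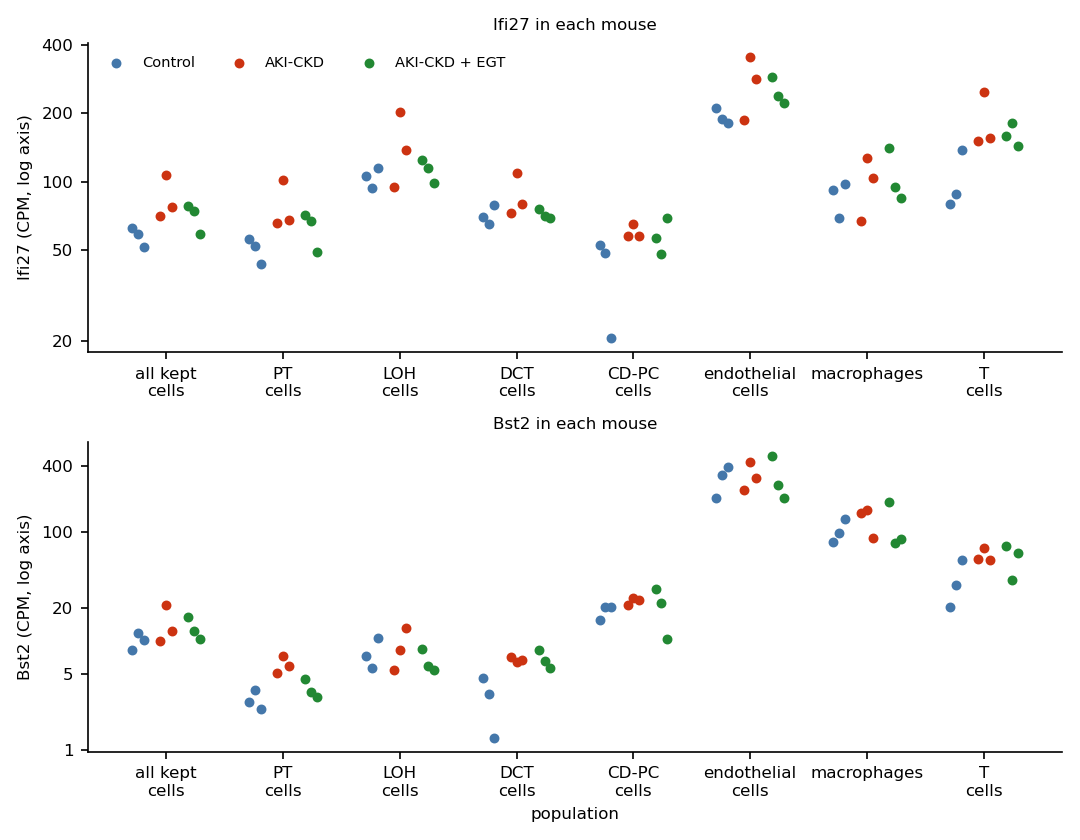
Ifi27 and Bst2 levels (CPM) by mouse in the 8 tested populations on log axes, each point 1 mouse, for Control, AKI-CKD and AKI-CKD + EGT. In PT cells the 3 AKI-CKD mice lie above the 3 Control mice for both genes, and edgeR called neither gene in any population.

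The other tubule segments gave few tested members. In LOH cells 0 of 7 were called, beside 0.0191% of 10494 genes higher and 0.00953% lower, and DESeq2 called 0. At an unadjusted p under 0.05, 3 were higher (Isg15, Ifi35 and Ifi27) and 0 lower, beside 5.36% and 5.23% of all genes, and no member's mice were without overlap, beside 8.76% higher and 7.53% lower. Isg15 in LOH cells was at 20.3, 22.8 and 8.33 CPM in Control mice, 11.6, 87.0 and 61.8 CPM in AKI-CKD and 1.68, 28.1 and 34.9 CPM in AKI-CKD + EGT, so AKI-CKD mouse 1 lay among the Control mice. In DCT cells 0 of 13 were called, beside 0.00826% of 12108 genes in each direction, and DESeq2 called 0. By an unadjusted p under 0.05, 1 was higher (Bst2) and 0 lower, beside 4.67% and 4.39% of all genes. Bst2 and Ifi35, which binds the transcriptional regulator NMI, were the 2 members that lay higher without overlap and 0 lay lower, beside 8.42% and 7.03%, and the log2 fold change of Ifi35 was 0.43. In CD-PC cells 0 of 8 were called, beside 0.021% of 9545 genes higher and 0% lower, and DESeq2 called 0. There 0 members passed an unadjusted p under 0.05, beside 7.01% of all genes higher and 8.23% lower, and Bst2 and Ifi27 were the 2 that lay higher without overlap and 0 lay lower, beside 12.3% and 10.6%.

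In endothelial cells, where the members were highest, no member was called between AKI-CKD and Control. Of 29 tested, 0 were called, beside 0% of 10353 genes in either direction, and DESeq2 called 0. At an unadjusted p under 0.05, 1 was higher (Ifi27) and 2 were lower (Herc6 and Ddx60), beside 4.48% and 4.76% of all genes. Herc6, an ISG15 ligase of mice, was at 17.4, 12.7 and 16.0 CPM in Control mice and 5.77, 10.6 and 3.75 CPM in AKI-CKD, a log2 fold change of -1.10 with a standard error of 0.452 and an adjusted p of 0.484 (edgeR). Ddx60, at 5.55, 7.63 and 13.3 CPM in Control mice and 3.30, 5.30 and 3.75 CPM in AKI-CKD, was also lower without overlap, at -1.02 with an adjusted p of 0.515. Xaf1 lay higher without overlap at a log2 fold change of 0.26. Non-overlapping members were thus 1 higher and 2 lower, beside 7.66% and 7.14% of all genes. The median log2 fold change was -0.03, beside -0.01 for all genes, and was -0.36 with AKI-CKD mouse 2 left out and 0.11 with Control mouse 3 left out.

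In T cells 0 of 9 members were called, beside 0.0218% of 4580 genes higher and 0% lower, and DESeq2 called 0. With p unadjusted and under 0.05, 3 were higher (Ifi27, Ifi27l2a and Isg15) and 0 lower, beside 5.31% and 6.27% of all genes. PT markers in T cells summed to 67115 to 80469 CPM in Control and, without overlap, to 29882 to 65126 CPM in AKI-CKD, and their part in these values was not tested. Ifi27l2a was at 159, 160.5 and 249 CPM in Control mice and 321, 553 and 279.8 CPM in AKI-CKD, a log2 fold change of 1.05 with a standard error of 0.322 and an adjusted p of 0.301 (edgeR). Together with Ifi27 these were the 2 members that lay higher without overlap and 0 lay lower, beside 8.6% and 8.1% of all genes. The median log2 fold change of 0.40 stood beside -0.01 for all genes, and was 0.63 without Control mouse 3.

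Over all kept cells 0 of 32 members were called, beside 0.0149% of 20144 genes higher and 0.00496% lower, and DESeq2 called 0. Ifi27 was the 1 member higher at an unadjusted p under 0.05, with 0 lower, beside 3.67% and 4.35% of all genes, and the 1 member without overlap, beside 8.71% higher and 7.08% lower. AKI-CKD mouse 2 had the highest level in its group for 30 of the 32 members, beside 34.5% of all genes, and mouse 1 the lowest for 24. In mouse 2 endothelial and immune classes made up 5.85% of cells, beside 2.45% in mouse 1 and 2.93% in mouse 3, and the part of these shares in the order was not tested. Rsad2, whose UMIs lay mostly in endothelial cells, was at 4.17, 11.5 and 4.17 CPM in AKI-CKD mice 1 to 3. Isg15 was at 10.1, 11.6 and 7.73 CPM in Control mice, 5.65, 26.7 and 15.03 CPM in AKI-CKD and 8.96, 12.9 and 20.3 CPM in AKI-CKD + EGT, with overlap between all groups. The direction of Rsad2 against Control turned without AKI-CKD mouse 2, to -0.54.

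Irf1 varied widely between mice of one group, and edgeR called it in no population in either comparison. Its spread between mice was not set against that between groups by a test. In PT cells it was at 12.8, 4.11 and 2.501 CPM in Control mice, 1.22, 9.19 and 2.92 CPM in AKI-CKD and 3.89, 18.5 and 12.6 CPM in AKI-CKD + EGT. The 17 dissociation genes, none of them a member, are immediate early and heat shock genes known to rise while tissue is digested. They summed in PT cells to 3885, 3428 and 2109 CPM in Control mice, 2340 (mouse 1), 4200 and 2792 CPM in AKI-CKD and 2180, 3221 and 4193 CPM in AKI-CKD + EGT. In each group the mouse with the lowest Irf1 in PT cells was the one with the lowest dissociation sum. Endothelial cells had the same lowest mice: Irf1 was at 72.7 CPM in Control mouse 3, 36.3 CPM in AKI-CKD mouse 1 and 88.5 CPM in AKI-CKD + EGT mouse 1, where the dissociation genes summed to 6204, 6000 and 6574 CPM, beside 10014 to 18319 CPM in the other 6 mice. Macrophages shared this order only in AKI-CKD + EGT, where mouse 1 had the lowest Irf1 (33.7 CPM) and the lowest dissociation sum (7532 CPM). In the other groups Irf1 was lowest in Control mouse 2 (37.8 CPM) and AKI-CKD mouse 3 (18.2 CPM), where the dissociation sum was lowest in Control mouse 3 (6227 CPM) and AKI-CKD mouse 1 (5819 CPM). The part of dissociation in the Irf1 values was not tested.

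AKI-CKD + EGT was compared with AKI-CKD in the same way, with the same AKI-CKD mice, so a value that is high in AKI-CKD enters both comparisons with opposite signs. No member was called in any population by edgeR. In macrophages 0 of 19 were called, beside 0% of 7725 genes in either direction, and DESeq2 called 1. By an unadjusted p under 0.05, 1 was lower (Isg15) and 0 higher, beside 3.17% and 5.02% of all genes. Isg15 lay lower and Irf9 higher without overlap, beside 6.82% and 7.12%. For Irf9 the groups nearly met, at 12.24 CPM in AKI-CKD mouse 2 and 12.30 CPM in AKI-CKD + EGT mouse 3. In PT cells 0 of 27 were called, beside 0% of 17917 genes in either direction. There 1 was higher and 1 lower at an unadjusted p under 0.05, beside 8.92% and 6.22% of all genes. The mice did not overlap for 2 members higher, Ifit1 and Usp18, and 1 lower, Bst2, beside 10.1% and 11%. Bst2 in PT cells was lower without overlap, at a log2 fold change of -0.72 with a standard error of 0.215 and an adjusted p of 0.232 (edgeR), and Ifit1 was higher without overlap at 0.91 with an adjusted p of 0.325. The median log2 fold change in PT cells was 0.18, beside -0.01 for all genes. It was 0.01 without AKI-CKD mouse 1 and 0.37 without AKI-CKD + EGT mouse 1, where 6 of 28 members passed an unadjusted p under 0.05 beside 4033 of 18699 genes (edgeR).

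In endothelial cells 0 of 29 members were called, beside 0.00966% of 10353 genes higher and 0% lower. Ifit2 had the smallest p, at 9.07, 13.0 and 10.3 CPM in AKI-CKD and 21.5, 22.8 and 13.0 CPM in AKI-CKD + EGT, a log2 fold change of 0.79 with a standard error of 0.331 and an adjusted p of 0.445 (edgeR). It was the only member at an unadjusted p under 0.05, beside 5.49% of all genes higher and 4.73% lower, and its groups met at 13.0 CPM. Ddx60, lower in AKI-CKD than in Control, was at 8.27, 8.90 and 6.20 CPM with EGT, a log2 fold change of 0.86 with an adjusted p of 0.528 (edgeR). It was the 1 member higher without overlap, with 0 lower, beside 8.1% and 7.5% of all genes. In T cells 0 of 9 were called, beside 0.0218% of 4580 genes higher and 0% lower, with 1 higher and 0 lower at an unadjusted p under 0.05, beside 6.99% and 5.04%. That member was Gbp7, at 33.1, 29.9 and 24.7 CPM in AKI-CKD and 57.2, 50.5 and 74.9 CPM in AKI-CKD + EGT, a log2 fold change of 1.04 with a standard error of 0.356 and an adjusted p of 0.269. Its mice did not overlap, nor did those of Zbp1, and both were higher, beside 9.21% of all genes higher and 8.43% lower.

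In LOH cells 0 of 7 were called, beside 0.143% of 10494 genes higher and 0.0762% lower, and Ifi35 and Isg15 were the 2 members lower at an unadjusted p under 0.05, with 0 higher, beside 6.52% and 7.52% of all genes. Their log2 fold changes were -0.75 and -1.18, and no member's mice were without overlap, beside 8.17% higher and 8.77% lower. In DCT cells 0 of 13 were called, beside 0% of 12108 genes in either direction, and Ifi35 was the 1 member lower at an unadjusted p under 0.05, with 0 higher, beside 5.36% and 6.67%, at a log2 fold change of -0.49. Irf9 was the 1 member higher without overlap, with 0 lower, beside 8.4% and 8.47%. In CD-PC cells 0 of 8 were called, beside 0% of 9545 genes in either direction, and Irf9 was the 1 member lower at an unadjusted p under 0.05, with 0 higher, beside 6.02% and 7.94%. It was also the 1 member lower without overlap, with 0 higher, beside 9.66% and 9.11%. Irf9 there was at 13.2, 17.6 and 18.8 CPM in AKI-CKD, on 16, 17 and 12 UMIs. With EGT it was at 9.97, 11.1 and 6.49 CPM, on 9, 14 and 15 UMIs. Its log2 fold change was -0.88 with an adjusted p of 0.304 (edgeR). Over all kept cells 0 of 32 were called, beside 0.00496% of 20144 genes higher and 0% lower, with 0 at an unadjusted p under 0.05, beside 6.81% higher and 5.88% lower. Herc6 and Oas2 were the 2 members higher without overlap, with 0 lower, beside 8.54% and 9.73%, and the median log2 fold change of the members was 0.26, beside -0.01 for all genes. It was 0.70 without AKI-CKD mouse 2, where 12 of 32 members passed an unadjusted p under 0.05 beside 2961 of 20841 genes (edgeR) and 0 members were called, and -0.03 without AKI-CKD mouse 1. DESeq2 called 0 members in each population but macrophages in this comparison.

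**Figure D5:**
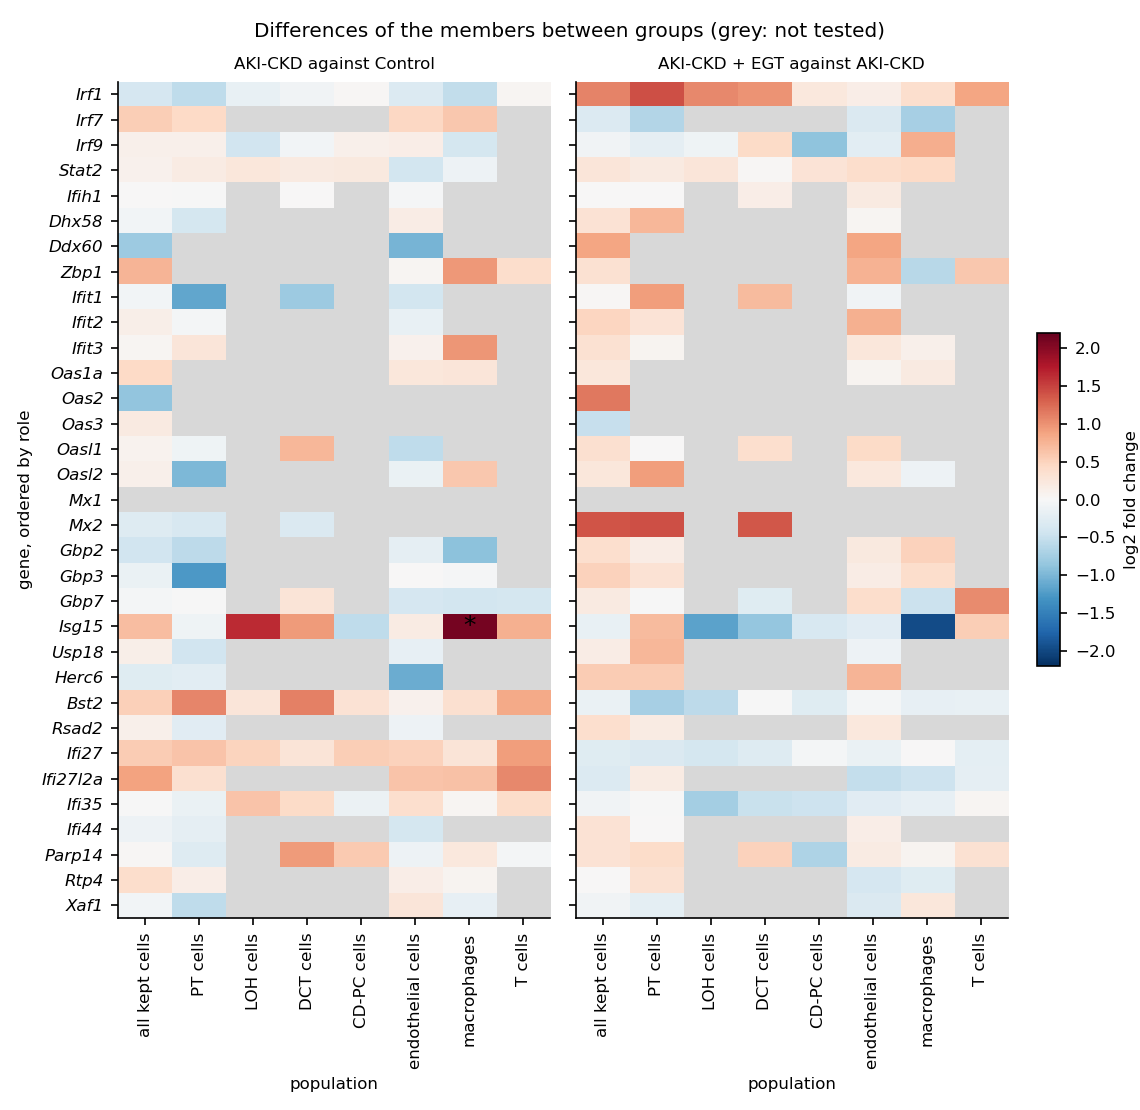
Log2 fold change of each member (rows) in each population (columns) for AKI-CKD against Control (left) and AKI-CKD + EGT against AKI-CKD (right), red above 0, blue below and grey where not tested. The star marks Isg15 in macrophages, the only value that edgeR called (2.10), and its value with EGT (-1.98) is the lowest of the right panel.

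The rest of the pathway was read from a list of 133 genes outside the members found in the files. None was called in any population in either comparison: 0 of 122 tested in all kept cells, 97 in PT, 57 in LOH, 66 in DCT, 53 in CD-PC, 91 in endothelial cells, 75 in macrophages and 49 in T cells. In macrophages, 8 of the 75 were higher and 1 lower in AKI-CKD than in Control at an unadjusted p under 0.05, beside 2.77% and 3.81% of all genes, and 4 were higher and 6 lower with EGT, beside 5.02% and 3.17%. Against Control, 3 of the 97 in PT cells were higher and 8 lower, beside 4.96% and 6.35%, and 2 of the 91 in endothelial cells were higher and 6 lower, beside 4.48% and 4.76%. In DCT cells 6 of the 66 were higher and 1 lower (4.67% and 4.39% of all genes), and in LOH cells 4 of the 57 and 0 (5.36% and 5.23%). In CD-PC cells 4 of the 53 were higher and 1 lower (7.01% and 8.23%), and in T cells 4 of the 49 and 1 (5.31% and 6.27%). Over all kept cells 4 of the 122 were higher and 2 lower (3.67% and 4.35%). With EGT against AKI-CKD, 8 in PT cells were higher and 7 lower (8.92% and 6.22%), and 3 and 6 in LOH cells (7.52% and 6.52%). The counts were 0 and 4 in DCT (6.67% and 5.36%) and 1 and 3 in CD-PC cells (7.94% and 6.02%). They were 4 and 3 in endothelial (5.49% and 4.73%) and 2 and 2 in T cells (6.99% and 5.04%). All kept cells gave 7 and 5 (6.81% and 5.88%). Transcripts of type I interferons and of the type III interferon Ifnl2 were at the limit of detection. Ifnb1 gave 11 UMIs in the series, 6 of them in the S100a8/S100a9 myeloid cluster and 4 in macrophages, all 4 from AKI-CKD mouse 3. Ifnz gave 9 UMIs in PT cells, and Ifna13 and Ifnl2 gave 0 in every class, which allows no more than 3 UMIs of each by counting error alone.

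Ifng, the gene of interferon gamma, gave 427 UMIs in T cells and 26 in PT cells. In T cells it was at 53.1, 98.3 and 180 CPM in Control mice, 486, 200 and 129 CPM in AKI-CKD and 110, 86.3 and 78.4 CPM in AKI-CKD + EGT. AKI-CKD overlapped with Control, at a log2 fold change of 1.30 with a standard error of 0.426 and an adjusted p of 0.301 (edgeR). It did not overlap with AKI-CKD + EGT, at -1.52 with a standard error of 0.422 and an adjusted p of 0.190, and neither was called. AKI-CKD mouse 1, with the highest Ifng, had the lowest Isg15 of its group in macrophages and in T cells, on 26 and 16 UMIs. Its macrophage level of 125 CPM still lay above every Control and AKI-CKD + EGT mouse. A relation between Ifng and Isg15 was not tested.

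Of the receptor genes, Ifnar2 was at 156 ± 32.3 CPM (SD, n = 9) in endothelial cells, 119 ± 32.9 CPM in macrophages, 122 ± 25.2 CPM in the S100a8/S100a9 myeloid cluster and 37.5 ± 6.18 CPM in PT cells, and Ifnar1 at 34.1 ± 8.18 CPM in endothelial and 15.9 ± 1.503 CPM in PT cells. Ifngr1 was highest among these classes in T cells, at 127 ± 36.4 CPM, beside 35.3 ± 10.9 CPM in endothelial and 12.3 ± 2.21 CPM in PT cells. Socs1, an inhibitor of JAK kinases that is itself induced by interferon, was at 26.7 ± 11.7 CPM in endothelial cells, 47.3 ± 17.0 CPM in T cells and 0.302 CPM in PT cells.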

How the data were processed

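The deposited files hold raw counts (UMIs per gene and barcode) of 9 kidney libraries, written by the authors with PISA 1.0 per the file headers, on GRCm39 per the labels; the aligner and annotation are not given in the sources used here. Cells with at least 1000 UMIs, 500 genes and at most 15% mitochondrial UMIs were kept. They were clustered on 2000 variable genes, without members, pathway genes, mitochondrial or ribosomal genes (scanpy 1.11.5, 30 components, a Harmony-type correction per library, Leiden resolution 1.1), and clusters were named from markers. The rule that separates LOH from DCT by Slc12a1 and Slc12a3 was set after the clusters were seen. Scrublet called at most 1 cell per library and so removed no doublets. Counts were summed per mouse and population and tested with edgeR 4.0.16 (R 4.3.3, TMM, quasi-likelihood, low genes filtered, Benjamini-Hochberg over all genes), with DESeq2 1.42.0 as an alternative. edgeR recovered 37 of 200 genes simulated with a log2 change of 1 and 171 of 200 with a change of 2 in macrophages, and 75 and 188 in endothelial cells. False calls were 4 and 6 in macrophages and 3 and 11 in endothelial cells. The 200 genes were drawn from all tested genes and changed together. The adjustment is stricter when few genes change, so these counts do not give the recovery of a single member. Members named are the called ones, the 3 with the smallest p in each population and comparison, and the 8 with the highest mean CPM; those named for class levels or mice without overlap were chosen after their values were seen. The members and lists were chosen with earlier results of these data known. Levels relative to class markers were added after seeing the data. One pathway gene is not reported here.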

Additional observations from a re-analysis of the deposited data

Results flagged for a closer look

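Irf9, the DNA-binding subunit of the factor that binds the ISRE, was marked because its mice moved in opposite directions in different populations between AKI-CKD + EGT and AKI-CKD. Its log2 fold change was 0.42 in DCT cells and 0.80 in macrophages, with every AKI-CKD + EGT mouse above every AKI-CKD mouse, and -0.88 in CD-PC cells, with every AKI-CKD + EGT mouse below. Mice lay apart in the same direction for 8.4% of all genes in DCT cells, 7.12% in macrophages and 9.66% in CD-PC cells. The share of genes that lay apart in opposite directions was not computed. In macrophages Irf9 gave 1, 10 and 8 UMIs in AKI-CKD and 20, 19 and 12 with EGT. The nearest mice of the groups there stood at 12.24 and 12.30 CPM. In CD-PC cells it gave 16, 17 and 12 UMIs in AKI-CKD and 9, 14 and 15 with EGT. The difference between populations was not tested, and none of the 3 fold changes was called.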

How the results depend on the processing

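Every main result but that of macrophages against Control had 0 called members, a count that cannot fall. The number of called members kept its value in 260 of 282 refits. Their median log2 fold change turned on single mice: over all kept cells it ran from -0.39 to 0.28 against Control and from -0.03 to 0.70 with EGT when 1 mouse was left out, and in macrophages with EGT from -0.51 (AKI-CKD + EGT mouse 1 left out) to 0.33 (mouse 3 left out), beside 0.0075 with all mice. In macrophages, AKI-CKD against Control, the 1 called member (Isg15) became 0 with the replicate block, with at most 10% mitochondrial UMIs, without the highest doublet scores, and without the 5% deepest and shallowest cells, at log2 fold changes of 2.15, 2.07, 2.02 and 1.43 beside 2.10. The replicate numbers do not pair the mice (correlations of same-numbered deviations in macrophages from -0.27 to 0.06), so the block is given only here, where Isg15 had an adjusted p of 0.0596, and it changed no other call. Leaving out 1 mouse gave 0 to 1 called members in each macrophage comparison and 0 elsewhere. For AKI-CKD + EGT against AKI-CKD in macrophages, 1 member was called with DESeq2, without Harmony, at resolution 0.6 and with all genes allowed among the variable genes. With no filter on low counts, 2 members were called in macrophages in each comparison, 1 in PT, 1 in LOH, 1 in DCT and 1 in T cells against Control, and 2 each in LOH and DCT with EGT. Of all genes these fits called 74 and 94 of 20200 in macrophages, 113 of 30209 in PT, 195 of 23382 in LOH, 271 of 25341 in DCT and 65 of 18221 in T cells against Control, and 396 in LOH and 490 in DCT with EGT. DESeq2 called 1 in PT cells against Control, beside 205 of 17917 genes. The cause was not tested. Of 1036 refits of named fold changes, 17 turned direction, all over all kept cells and none called. Only there did the refits include the 8 members with the highest mean CPM. Elsewhere they held the 3 members with the smallest p and any called one, chosen in a way that makes a turn unlikely. The count therefore does not show that directions were stable in the separate populations. Leaving out 1 mouse moved the log2 fold change against Control between -1.202 and 0.11 for Irf1, -0.14 and 0.26 for Ifi35, -0.54 and 0.36 for Rsad2, and -0.17 and 0.31 for Stat2. For AKI-CKD + EGT against AKI-CKD the ranges were -0.15 to 0.000759 for Ifi35, -0.58 to 0.43 for Isg15, -0.36 to 0.22 for Bst2 and -0.66 to 0.49 for Ifi27l2a. Ifi35 against Control turned to 0.0028 with the replicate block and to 0.0612 without the deepest and shallowest cells, which turned Isg15 with EGT to 0.0322. Pooling the UMIs of the mice left the levels of 8 members in PT, endothelial, macrophage and T cells within 1 SD (32 of 32). A pooled level is an average of the same mice weighted by depth, so it could hardly leave that range. Levels were not computed under other clusterings. There the thin limb (without Harmony and at resolution 0.6), stromal cells and the S100a8/S100a9 cluster (at 0.6) were not formed as classes. Without thinning, 31 of 32 shares of cells moved. Macrophages gave between 78 and 410 cells per mouse, which limits low members there.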
